A study of Homo sapiens with 6 samples.

Results

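The genes that mark stages of thymocyte development comprised 8 rows of the deposited table, chosen by symbol: RAG1, RAG2, DNTT, CD1A, CD1B, CD1C, CD1D and CD1E. All 8 were found among 59248 gene symbols, and all 8 were among the 21055 genes that passed the expression filter and were tested. RNA was sequenced from Jurkat, an established human T-cell leukemia line. In 3 libraries the cells overexpressed PDCD1-28 (28 is a superscript in the labels), a splice form of PDCD1 (the PD-1 receptor gene) that keeps the first 28 base pairs of intron 2, and in 3 libraries the cells carried the vector. The growth protocol gives both groups as Jurkat KO-1 without explaining the addition. The labels state neither the promoter of the construct, nor whether each line is 1 clone, nor that the numbered replicates were separate cultures, so the p-values reflect library-to-library spread alone, possibly technical. The study asked how the splice form acts in T cells, and the comparison here is of transcript levels between the groups.

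RAG1 and RAG2 form the recombinase that cuts DNA to assemble antigen receptor genes, and DNTT, terminal deoxynucleotidyl transferase, adds untemplated nucleotides at the joints. Developing T cells express them in the thymic cortex, before a complete receptor has been selected. CD1 proteins resemble MHC class I molecules and present lipids. CD1a, CD1b and CD1c also mark cortical thymocytes, CD1d is the ligand of natural killer T cells, and CD1e acts inside the cell in lipid exchange. Leukemias of cortical type keep part of this program.

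Total estimated counts per library ran from 61486369 to 72314037 in overexpression and from 59911578 to 84220970 in vector. The highest total was that of vector replicate 2, which stood apart from the other vector libraries on the second principal component (12.9% of the variance). PDCD1, the targeted gene, was at 13.8 ± 1.03 CPM in overexpression and 0.229 ± 0.0110 CPM in vector (SD, n = 3 each), where CPM is the usual depth-scaled unit, here of estimated counts with TMM factors. The table is per gene and does not separate the splice form from other PDCD1 transcripts. The labelled cell line was checked through T-lineage and leukemia genes, which ranged widely in level. CD3E, a chain of the T-cell receptor complex, averaged 396 ± 3.69 CPM in overexpression and 415 ± 10.7 CPM in vector (SD, n = 3 each), and the leukemia transcription factor gene TAL1 averaged 394 ± 6.60 CPM in overexpression and 323 ± 30.8 CPM in vector. Of 12 T-ALL and Jurkat identity markers, all tested, 2 rose, 6 fell and 4 did not pass an adjusted p under 0.05. Over all genes tested 22.6% rose and 23.4% fell. The pre-T-cell receptor gene PTCRA was the lowest of the 12 in both groups. It had 1.80 ± 0.231 CPM in overexpression and 4.73 ± 4.6 CPM in vector (SD, n = 3 each). The summed level of the 12 markers was 2615 to 2672 CPM in overexpression and 2713 to 2888 CPM in vector. The markers that fell with the smallest adjusted p were CD2, CD7 and TRAC, a T-cell receptor alpha constant gene. Their log2 fold changes were -2.6, -2.1 and -0.64, so the groups were not alike in all identity markers. Replicate 2 of vector was higher than the mean of vector replicates 1 and 3 in each of the 8 genes, by 1.18-fold for CD1D to 3.47-fold for DNTT. Of all genes tested, 6.52% were at least 2-fold higher in that library than in the other vector libraries and 5.08% at least 2-fold lower. Values of the 8 genes are therefore also given without it. Because that library was picked on the values of these same genes, adjusted p-values from the fit without it depend on that choice. They describe the remaining libraries and are not independent support for a difference.

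In overexpression cells RAG2 rose and DNTT and CD1C fell. These 3 of the 8 genes passed the threshold of edgeR's quasi-likelihood test, an adjusted p under 0.05 over all genes tested, where 46.1% of all genes did (22.6% higher and 23.4% lower), so the share of the 8 genes called was no larger than that of the table as a whole. Without vector replicate 2, 6 of the 8 genes passed (RAG1, RAG2, DNTT, CD1A, CD1C and CD1E), against 49.5% of all genes tested.

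The sequences just before the start sites of the 3 genes called are shown because these genes changed in different directions. They are RefSeq promoter windows (GRCh38.p14, the assembly family of the files' hg38), on the strand of each gene, limited to bases upstream of both the RefSeq start and the first base of the gene in GENCODE 29. Capitals mark 2 motifs that a search of both strands found: CANNTG, the E-box bound by E proteins and TAL1, and AGATAA, a core bound by GATA factors, which reads TTATCT where it lies on the opposite strand.
RAG2, chr11:36598280-36598486, minus strand: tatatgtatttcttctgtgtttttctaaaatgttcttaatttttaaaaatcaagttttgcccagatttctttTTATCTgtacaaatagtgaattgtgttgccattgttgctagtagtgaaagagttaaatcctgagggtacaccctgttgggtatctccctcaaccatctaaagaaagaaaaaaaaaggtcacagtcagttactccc
DNTT, chr10:96304184-96304395, plus strand: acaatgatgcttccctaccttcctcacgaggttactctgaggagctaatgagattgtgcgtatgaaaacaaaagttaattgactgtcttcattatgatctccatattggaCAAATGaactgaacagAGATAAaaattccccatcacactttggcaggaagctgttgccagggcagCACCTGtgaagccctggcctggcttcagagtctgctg
CD1C, chr1:158289673-158289785, plus strand: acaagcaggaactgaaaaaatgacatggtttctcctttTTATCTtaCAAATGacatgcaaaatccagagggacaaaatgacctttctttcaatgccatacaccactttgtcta
Each of the 3 stretches holds 1 match to AGATAA, which 7.8% of 35116 RefSeq promoter windows hold over the stretch of the RAG2 length, 7.9% over that of DNTT and 4.7% over that of CD1C. The DNTT stretch holds 2 E-boxes and the CD1C stretch 1, and the RAG2 stretch holds none (56.7%, 36.5% and 55.8% of windows hold an E-box over the same lengths). The RUNX core TGTGGT was searched too and is in none of the 3 stretches. The ETS core GGAAG has 3 matches in the DNTT stretch and none in the others printed. At least 1 match is held by 57.9% of windows over the DNTT length, 56.8% over that of RAG2 and 36.1% over that of CD1C. RAG1 and CD1D, not called with all libraries, were searched too, over 250 bases each that are not printed. Both hold 1 E-box and 1 ETS match and no AGATAA or RUNX match. Over 250 bases 61.8% of windows hold an E-box and 65.1% an ETS match. CD1A and CD1E, not called with all libraries either, were not searched, because 0 and 52 bases were left within the upstream limit. CD1B had no window. Whether any motif goes with the direction of change was not tested. No match overlapped a match to another motif, and a match describes letters and not binding.

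**Figure D1:**
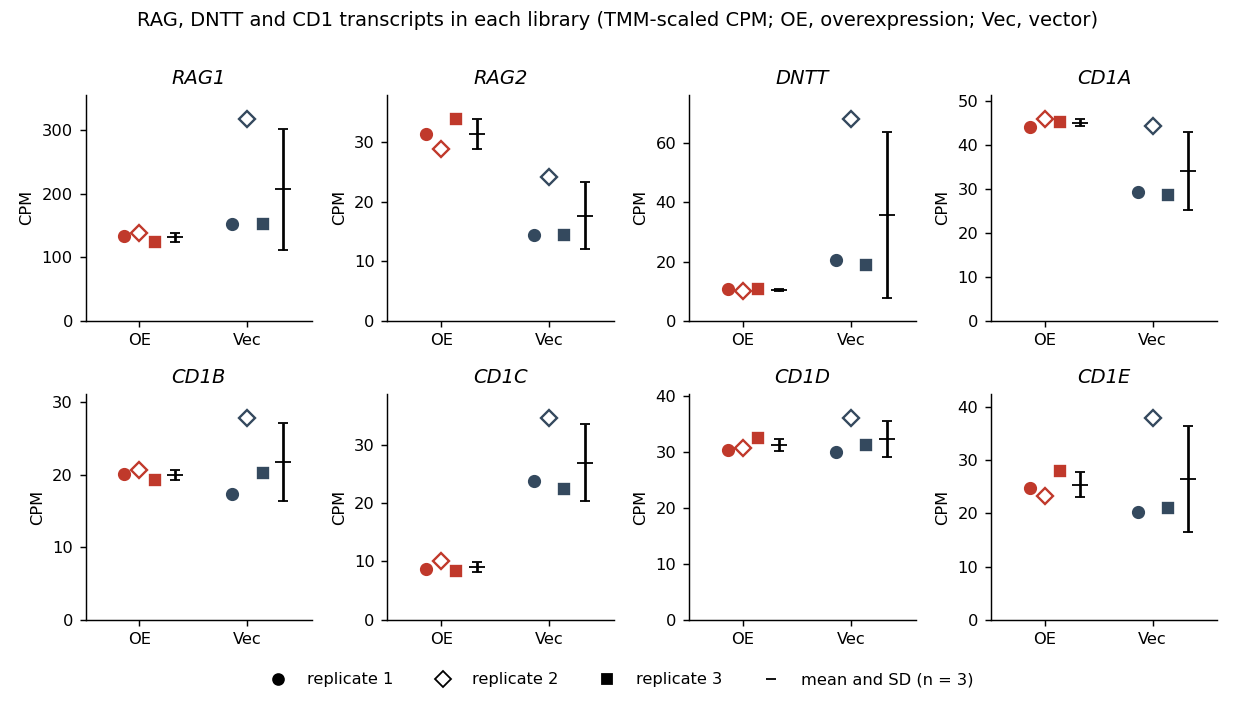
TMM-scaled CPM (y axis, from 0) of the 8 genes in each library, with overexpression (OE) left of vector (Vec) in each panel; symbols give the replicate, open diamonds replicate 2, and bars the mean and SD of 3 libraries. Vector replicate 2 is the highest vector library in each panel, at 68.1 CPM for DNTT against 20.5 and 18.8 CPM in the others.

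Of the recombinase genes, RAG1 encodes the catalytic subunit. It lies on chromosome 11 (36510709 to 36593156, plus strand, hg38; ENSG00000166349.9 in GENCODE 29). RAG1 had 133, 138 and 124 CPM in overexpression libraries, against 153, 318 and 152 CPM in vector libraries, from 8645, 10263 and 7927 and from 8848, 25615 and 10300 estimated counts. All overexpression libraries were below all vector libraries, but vector replicate 2 was 2.08-fold above the other vector libraries, which differed from each other by only 0.003 on the log2 scale. The fitted log2 fold change was -0.66 ± 0.26 (SE), with a 95% interval from -1.26 to -0.05 before adjustment, and did not pass the threshold (edgeR adjusted p = 0.0727). The change was -0.22 ± 0.04 without vector replicate 2 and passed (edgeR adjusted p = 0.00313). It also passed without vector replicate 1 or 3, at -0.84 in both cases (edgeR adjusted p = 0.0379 and 0.0376), so the size of the difference in RAG1 depended on that library more than its direction did.

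RAG2, the partner subunit, which reads a histone mark of active genes, lies beside RAG1 on the opposite strand (chromosome 11, 36575574 to 36598279, ENSG00000175097.7). RAG2 had 31.4, 28.8 and 33.9 CPM in overexpression libraries, against 14.5, 24.1 and 14.4 CPM in vector libraries. The groups did not overlap, and the lowest overexpression library was above vector replicate 2. RAG2 was 1.77-fold higher in overexpression (log2 fold change 0.83 ± 0.20, SE; edgeR adjusted p = 0.00933). The difference was larger without vector replicate 2, at 1.11 on the log2 scale (edgeR adjusted p = 1.25e-05). Its call held in each of the 14 alternative settings run.

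Reads at the RAG2 locus can be shared with IFTAP, a gene on the plus strand named C11orf74 in GENCODE 29, because 109 of the 2820 exon bases of RAG2 overlap its exons and the strand setting of the counting was not given in the sources used here. IFTAP had 8.98, 8.73 and 9.01 CPM in overexpression libraries, against 5.26, 7.80 and 4.07 CPM in vector libraries, a log2 fold change of 0.64 ± 0.23 (edgeR adjusted p = 0.0488). IFTAP thus moved in the same direction as RAG2, at a lower level, and its part in the RAG2 values was not tested. IFTAP was not called in 7 of the 14 alternative settings, among them each fit that left out a library other than vector replicate 2. RAG1 and RAG2 overlap as genes but share 0 exon bases in the basic GENCODE set.

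The ratio of RAG2 to RAG1 within a library does not depend on scaling between libraries, and its use was chosen after the values were seen. There were 23.6, 20.9 and 27.3 RAG2 estimated counts per 100 of RAG1 in overexpression libraries, against 9.47, 7.60 and 9.47 in vector libraries. Vector replicate 2, in which both genes were high, had the lowest ratio of the 6 libraries. The ratio was 2.71-fold higher in overexpression, and the groups did not overlap (exact two-sided permutation p = 0.1, n = 3 each, the smallest p that 3 libraries against 3 allow; adjusted p = 0.15 over the 9 ratios computed). The ratio is not corrected for transcript length, so it compares libraries and not the genes with each other.

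DNTT lies on chromosome 10 (96304396 to 96338564, plus strand, ENSG00000107447.7), where a non-coding gene on the other strand, AL136181.1, overlaps it with 0 shared exon bases. DNTT had 10.7, 10.1 and 10.7 CPM in overexpression libraries, against 20.5, 68.1 and 18.8 CPM in vector libraries, from 697, 755 and 681 and from 1188, 5494 and 1271 estimated counts. All overexpression libraries were lower than all vector libraries and close to each other (SD 0.320 CPM), while vector replicate 2 was 3.47-fold above the other vector libraries. DNTT fell by 1.77 ± 0.46 on the log2 scale, 3.41-fold lower in overexpression (edgeR adjusted p = 0.0143). The fall was smaller without vector replicate 2, 0.91 on the log2 scale, with a smaller adjusted p (edgeR adjusted p = 7.49e-05). The call was lost when overexpression replicate 1, 2 or 3 was left out with vector replicate 2 kept (edgeR adjusted p = 0.0528, 0.0568 and 0.0571). Per 100 RAG1 estimated counts there were 8.06, 7.36 and 8.59 of DNTT in overexpression libraries, against 13.4, 21.4 and 12.3 in vector libraries (exact two-sided permutation p = 0.1, n = 3 each, the smallest possible; adjusted p = 0.15).

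**Figure D2:**
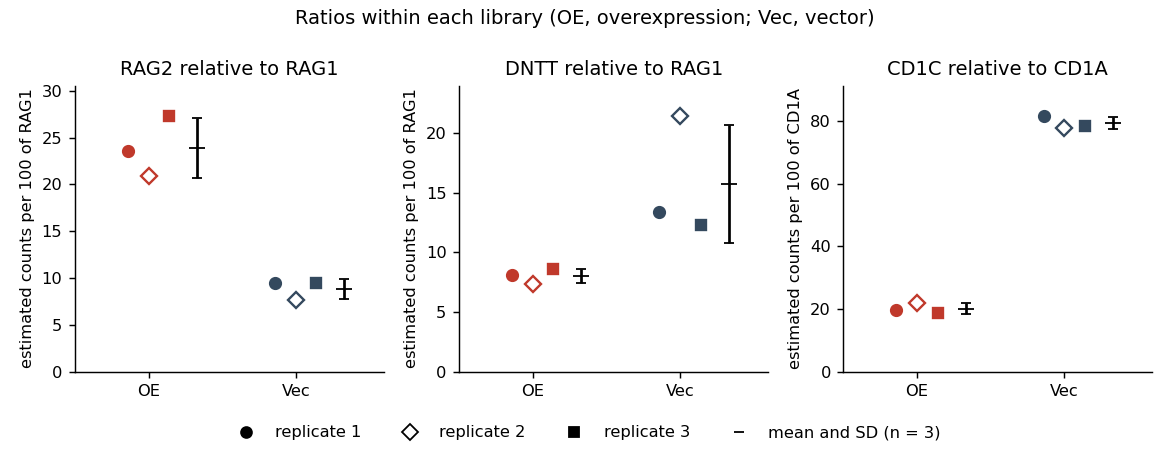
Estimated counts of RAG2 and DNTT per 100 of RAG1, and of CD1C per 100 of CD1A, within each library (y axes from 0), with overexpression (OE) left of vector (Vec); symbols give the replicate and bars the mean and SD of 3 libraries. CD1C per 100 CD1A lies at 18.7 to 21.9 in overexpression libraries and at 77.9 to 81.6 in vector libraries, vector replicate 2 included.

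The 5 CD1 genes lie in a row on chromosome 1 between 158179947 and 158357553, CD1B on the minus strand and the others on the plus strand. CD1C, whose product presents mycobacterial lipids and marks cortical thymocytes and a class of dendritic cells (158289786 to 158293630, ENSG00000158481.12), differed most among them. CD1C had 8.72, 10.04 and 8.43 CPM in overexpression libraries, against 23.8, 34.5 and 22.4 CPM in vector libraries. The groups were far apart in each library, including vector replicate 2. CD1C fell by 1.57 ± 0.17 on the log2 scale, 2.97-fold lower in overexpression (edgeR adjusted p = 0.000201), and by 1.36 without vector replicate 2 (edgeR adjusted p = 1.13e-05). Its call held in each of the 14 alternative settings.

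CD1A, the group 1 family member best known as a cortical thymocyte and Langerhans cell marker (158254137 to 158258269, ENSG00000158477.6), had 44.1, 45.8 and 45.2 CPM in overexpression libraries, against 29.1, 44.3 and 28.5 CPM in vector libraries. Vector replicate 2 reached the range of the overexpression libraries and the other vector libraries did not. The log2 fold change of CD1A was 0.40 ± 0.16 with a 95% interval from 0.04 to 0.77 before adjustment, and it did not pass (edgeR adjusted p = 0.0677). DESeq2 called it at 0.39 (adjusted p = 0.0267). With vector replicate 2 left out, CD1A was higher by 0.63 ± 0.05 on the log2 scale and passed (edgeR adjusted p = 1.51e-05).

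The contrast between CD1C and CD1A was seen within each library. Per 100 CD1A estimated counts there were 19.8, 21.9 and 18.7 of CD1C in overexpression libraries, against 81.6, 77.9 and 78.6 in vector libraries. The ratio was 3.95-fold lower in overexpression, and vector replicate 2 lay with the other vector libraries (exact two-sided permutation p = 0.1, n = 3 each, the smallest possible; adjusted p = 0.15). As a share of the summed estimated counts of the 5 CD1 genes, CD1C held 6.94% ± 0.690 in overexpression against 19.0% ± 0.798 in vector, and CD1A 34.5% ± 0.586 in overexpression against 23.9% ± 0.754 in vector (SD, 3 libraries each; exact two-sided permutation p = 0.1 and adjusted p = 0.15 for both). CD1B held 15.3% ± 0.768 in overexpression libraries against 15.4% ± 1.00 in vector libraries (SD, 3 libraries each), with overlap (exact two-sided permutation p = 1). The shares of CD1D and CD1E overlapped too (exact two-sided permutation p = 1 and 0.5).

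CD1B, which encodes the CD1 protein with the largest lipid-binding groove (158327951 to 158331531, ENSG00000158485.10), had 20.1, 20.7 and 19.2 CPM in overexpression libraries, against 17.3, 27.8 and 20.2 CPM in vector libraries. The groups overlapped. The log2 fold change of CD1B was -0.13, with a 95% interval from -0.496 to 0.244 (edgeR adjusted p = 0.554), and 0.08 without vector replicate 2.

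CD1D, whose product presents lipids to natural killer T cells (158179947 to 158184896, ENSG00000158473.6), varied least. It had 30.4, 30.8 and 32.5 CPM in overexpression libraries, against 29.9, 36.0 and 31.2 CPM in vector libraries. Its log2 fold change was -0.05, with a 95% interval from -0.245 to 0.139 (edgeR adjusted p = 0.638), which leaves out changes as large as those of RAG2, DNTT or CD1C. Without vector replicate 2 it was 0.02.

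CD1E, the intracellular member of the family (158353696 to 158357553, ENSG00000158488.15), had 24.7, 23.3 and 28.0 CPM in overexpression libraries, against 20.3, 37.8 and 21.1 CPM in vector libraries. With all libraries the log2 fold change of CD1E was -0.06 (95% interval -0.583 to 0.459; edgeR adjusted p = 0.846). Without vector replicate 2 it was 0.28 ± 0.09 and passed (edgeR adjusted p = 0.0341), so for CD1E that library set both the sign and the call.

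Over all 6 libraries, the overexpression and vector libraries did not overlap for 4 of the 8 genes (RAG1, RAG2, DNTT and CD1C), against 58.7% of all genes tested. Without vector replicate 2 this held for 6 of the 8, against 69.1%. Neither count is therefore a result about the 8 genes.

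CD1 transcripts resemble one another, and counts could be shared between them to that extent. The longest protein-coding transcripts were 62.3% to 72.0% identical over the aligned bases of each pair. CD1A, CD1B and CD1E shared identical stretches of up to 92 bases (CD1A with CD1B), 88 bases (CD1B with CD1E) and 80 bases (CD1A with CD1E). CD1D shared up to 59 identical bases with CD1A and 43 with CD1E. CD1C, the CD1 gene that passed the test with all libraries, shared at most 24 identical bases with any of the others. Over the aligned bases, however, its pairs with CD1A (72.0%) and CD1B (70.6%) were the most alike. Sharing of counts between CD1 genes was not tested.

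**Figure D3:**
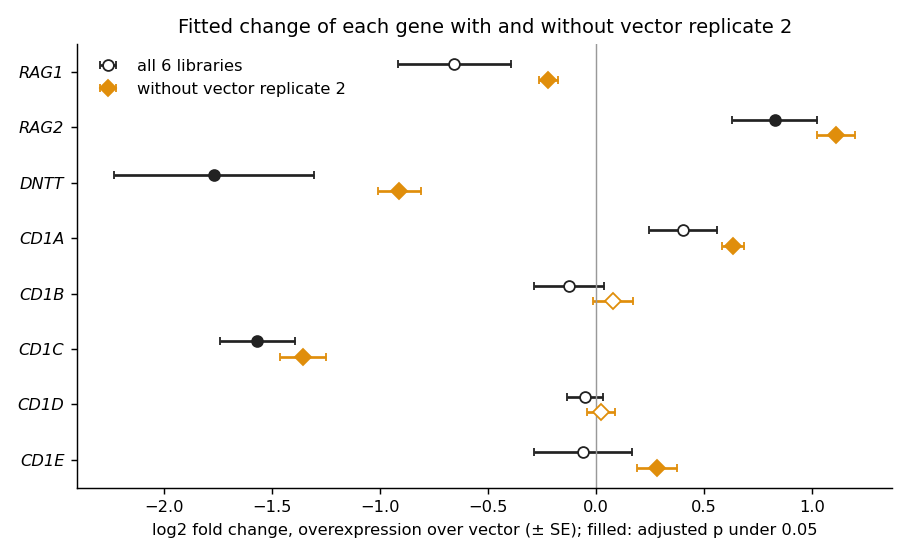
Log2 fold change of overexpression over vector (x axis) for each of the 8 genes, with all 6 libraries (black circles) and without vector replicate 2 (orange diamonds); bars are SE and filled symbols have an adjusted p under 0.05. RAG2, DNTT and CD1C are filled in both fits, while RAG1, CD1A and CD1E are filled only without vector replicate 2.

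Levels were set beside each other per kilobase of annotated exon, taken as the union over the transcripts of a gene. For CD1E this union is 2117 bases over 13 transcripts, of which the longest has 1820 bases. The place of CD1E in the orders below depends on that choice of length. In overexpression CD1A and RAG1 were the highest, at 21.5 and 20.1 CPM per kb, and CD1C and DNTT the lowest, at 6.31 and 5.33 CPM per kb. CD1B and CD1D (14.3 and 13.9 CPM per kb) overlapped in range, as did CD1E and RAG2 (12.0 and 11.1 CPM per kb). In vector RAG1 was the highest, with a mean of 31.6 CPM per kb, and RAG2 the lowest, at 6.27 CPM per kb. Between them, CD1C (18.8 CPM per kb), DNTT (18.2), CD1A (16.2), CD1B (15.6), CD1D (14.4) and CD1E (12.5) each overlapped the next in range. Group ranges alone therefore do not set their order in vector. Within each vector library CD1C was above CD1A, CD1B, CD1D and CD1E, and CD1E was below CD1A, CD1B and CD1C. DNTT had 10.4, 34.5 and 9.53 CPM per kb in vector replicates 1, 2 and 3. It was above CD1A, CD1B, CD1C and CD1D in vector replicate 2 and below them in vector replicates 1 and 3.

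Genes whose profile over the 6 libraries was most like each of the 8 were found by the root mean square difference of log2 CPM, centred on each gene's mean, among 13972 other genes averaging 100 or more estimated counts per library. The nearest to RAG1 was CBFA2T3, at a difference of 0.0346, with 97.7, 100.3 and 96.6 CPM in overexpression libraries, against 112, 236 and 110.5 CPM in vector libraries, followed by IGF1R and PMEPA1. For RAG2 they were FLT4 (0.0484), MFGE8 and TMCC2, and for CD1C they were TRPM2 (0.0964), TFRC and RGPD4. The nearest to DNTT was MAL (0.0643), with 14.1, 13.2 and 14.1 CPM in overexpression libraries, against 24.1, 91.5 and 23.6 CPM in vector libraries. CABLES1 and AC079612.1 came next to DNTT, at 0.172 and 0.211. CD1A was nearest to KB-1440D3.21 (0.0521), MSI2 and SPON2, and CD1D to AEN (0.0259), ZNF250 and ACACA. CD1B was nearest to DLX4 (0.0482), RP11-549B18.1 and SERINC5, and CD1E to GPR161 (0.0739), HSD11B2 and REPIN1. These distances describe 6 libraries.

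Among 17 genes that complete V(D)J recombination by bending and joining DNA, 6 rose, 8 fell and 3 did not pass. The median log2 fold change was -0.07 against 0.02 over all genes tested. Over all genes tested 22.6% rose and 23.4% fell, and these shares stand beside the counts of each list that follows. HMGB2, a DNA-bending cofactor of the recombinase, averaged 841 ± 14.7 CPM in overexpression and 437 ± 54.3 CPM in vector (SD, n = 3 each), a log2 fold change of 0.94 ± 0.08 (edgeR adjusted p = 6.87e-05). HMGB1, the other DNA-bending cofactor in the list, fell, with 748 ± 35.9 CPM in overexpression and 1007 ± 39.2 CPM in vector (SD, n = 3 each), a log2 fold change of -0.43 ± 0.05 (edgeR adjusted p = 0.000272). HMGB1 was named after its values were seen. POLM and DCLRE1C rose, by 0.61 and 0.46 on the log2 scale. POLM encodes polymerase mu, a relative of DNTT, and DCLRE1C the nuclease Artemis that opens hairpin ends. The end-binding Ku genes fell, XRCC5 by 0.69 and XRCC6 by 0.51, and so did PRKDC, the gene of their partner kinase, by 0.54. XRCC5 averaged 423 ± 11.7 CPM in overexpression and 684 ± 16.2 CPM in vector (SD, n = 3 each).

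Of 30 transcription regulators of thymocyte genes, 29 were tested, and 5 rose, 14 fell and 10 did not pass (median -0.33). The shares over all genes tested were 22.6% higher and 23.4% lower. E2F2, a cell cycle factor gene, rose by 0.48, IKZF1, the gene of Ikaros, by 0.39, and TAL1, which pairs with E proteins, by 0.29 on the log2 scale. ZBTB16, the gene of the factor PLZF of innate-like T cells, averaged 0.443 ± 0.00435 CPM in overexpression and 41.5 ± 2.09 CPM in vector (SD, n = 3 each; edgeR adjusted p = 5.02e-08). BCL11B, a T-lineage commitment factor gene, fell by 0.82 on the log2 scale. The E protein genes TCF3 and TCF12 fell by 0.23 and 0.41 (edgeR adjusted p = 0.0107 and 0.000338) and GATA3 had a log2 fold change of 0.08 that did not pass (95% interval -0.0501 to 0.211; adjusted p = 0.28). These last 3 genes were named after their values were seen, because they bind the motifs printed above.

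Of 32 thymocyte surface and stage genes, 3 rose, 21 fell and 8 did not pass, with a median log2 fold change of -0.86. In the whole set of genes tested 22.6% rose and 23.4% fell. ARPP21, a gene of immature thymocytes whose product is a cAMP-regulated phosphoprotein, had the smallest adjusted p of those that rose, at 477 ± 10.1 CPM in overexpression and 151 ± 1.75 CPM in vector (SD, n = 3 each), a log2 fold change of 1.66 ± 0.04 (edgeR adjusted p = 3.5e-07). TRBC1, a T-cell receptor beta constant gene, rose by 0.42. CD4 rose at a low level, with 1.3 ± 0.208 CPM in overexpression and 0.380 ± 0.272 CPM in vector (SD, n = 3 each), a call that was lost without overexpression replicate 3 (edgeR adjusted p = 0.0619) and a log2 fold change of 1.75 that was 2.53 without vector replicate 2. The costimulatory receptor gene CD28 averaged 1.90 ± 0.381 CPM in overexpression and 218 ± 47.9 CPM in vector. The adhesion receptor gene CD2 averaged 4.32 ± 0.312 CPM in overexpression and 25.6 ± 1.71 CPM in vector. CD7, an early T-lineage surface gene, averaged 17.5 ± 1.01 CPM in overexpression against 74.4 ± 8.36 CPM in vector (SD, n = 3 each; edgeR adjusted p = 8.64e-07, 3.02e-06 and 3.08e-06 for the 3 genes).

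Of 20 genes for CD1 assembly, lipid loading and trafficking, 18 were tested, and 2 rose, 10 fell and 6 did not pass (median -0.27). Again 22.6% of all genes tested rose and 23.4% fell. CTSL was listed at 0 in all libraries and CD74 did not pass the filter. PDIA3, which helps fold the heavy chain, averaged 97.4 ± 1.00 CPM in overexpression and 164 ± 4.45 CPM in vector (SD, n = 3 each; edgeR adjusted p = 9.68e-06). LAMP1, a lysosomal membrane gene, fell by 0.90, and PSAP, the gene of the saposins that load lipids, by 0.56. AP2M1, a subunit gene of the adaptor that binds CD1 tails at the cell surface, rose by 0.29. MTTP, a lipid transfer gene, had 1.13 ± 0.212 CPM in overexpression and 0.590 ± 0.168 CPM in vector (SD, n = 3 each; edgeR adjusted p = 0.0423). MTTP too was called in no fit that left out a library other than vector replicate 2. B2M, the light chain shared by all CD1 molecules, had a log2 fold change of -0.38 ± 0.10 (edgeR adjusted p = 0.0129) and was named after its values were seen. Without vector replicate 2 the V(D)J list still gave 6 higher and 8 lower and the CD1 assembly list 2 higher and 10 lower. The regulators then gave 4 higher and 18 lower and the surface genes 4 higher and 21 lower. In that fit 49.5% of all genes tested were called in either direction.

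**Figure D4:**
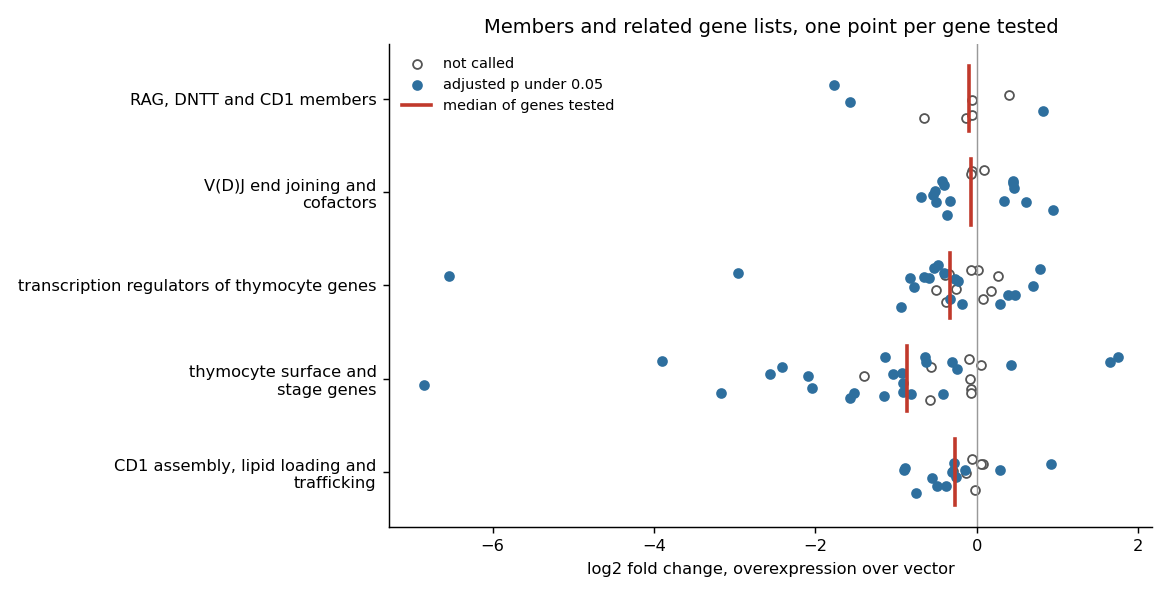
Log2 fold change of overexpression over vector (x axis) for the genes tested in each list (rows), with filled points for an adjusted p under 0.05 and red bars for the median. The 8 genes lie on both sides of 0, while the thymocyte surface and stage genes have a median of -0.86.

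Other cells that use these genes were looked for through their markers. Of 10 dendritic and Langerhans cell markers, CLEC10A, FCER1A, ITGAX and HLA-DRA were at 0 in all 6 libraries and 4 were tested. Their summed level ran from 25.6 to 29.5 CPM in overexpression and from 64.5 to 73.9 CPM in vector, of which LAMP3 held 23.2 ± 1.43 CPM in overexpression and 63.5 ± 4.6 CPM in vector (SD, n = 3 each). LAMP3 and IRF8 fell, with log2 fold changes of -1.45 and -2.7, and CD86 rose by 4.32. Of 10 B-lineage markers, the 6 tested gave 2 that rose and 2 that fell. MS4A1 had no more than 1 estimated count in any library, and PAX5 no more than 5. The summed level of the B-lineage list was 231 to 233 CPM in overexpression and 65.5 to 94.1 CPM in vector. IGLL1, a surrogate light chain gene of B-cell precursors, was at 195 ± 2.83 CPM in overexpression and 20.5 ± 3.5 CPM in vector (SD, n = 3 each), a log2 fold change of 3.25 ± 0.11 (edgeR adjusted p = 1.14e-06). BLNK and CD79A fell. CD79A, a B-cell receptor chain gene, was at 30.7 ± 4.21 CPM in overexpression and 47.2 ± 10.4 CPM in vector (SD, n = 3 each), so IGLL1 held most of the sum in overexpression and CD79A the largest part in vector. CD79A fell by 0.62 on the log2 scale, a call lost without overexpression replicate 1 (edgeR adjusted p = 0.0574) or 3 (0.0568). The part of other cells in the CD1, RAG and DNTT values was not tested. Of 8 myeloid markers 4 were tested, and AIF1 and CD14 fell. The list summed to 36.0 to 39.6 CPM in overexpression and 50.4 to 57.0 CPM in vector. In bulk RNA, fewer cells with a transcript and less transcript per cell cannot be told apart.

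Neighbours of the loci were compared to see whether the 8 genes moved with their surroundings. Around the RAG genes, TRAF6 had a log2 fold change of -0.28 (edgeR adjusted p = 0.0147). That is the opposite direction to RAG2 and IFTAP and the direction of RAG1, whose -0.66 was not called with all libraries. TRAF6 ends at 36510272 and RAG1 starts at 36510709. COMMD9 had a log2 fold change of -0.02 (edgeR adjusted p = 0.796). API5 fell too, with -0.58 (edgeR adjusted p = 7.31e-05), but lies far off. It starts at 43311963, while RAG2 ends at 36598279, and LRRC4C lies between them. The TRAF6 call was lost without vector replicate 1. Beside DNTT, BLNK, a B-cell adaptor gene, had 0.493, 0.511 and 0.798 CPM in overexpression libraries, against 1.86, 5.89 and 2.14 CPM in vector libraries (log2 fold change -2.46 ± 0.48, edgeR adjusted p = 0.00371; -1.75 without vector replicate 2). BLNK thus shared with DNTT both the lower level in overexpression and the high value in vector replicate 2. OPALIN, under 1.5 CPM in each library, had a change of -1.64 (edgeR adjusted p = 0.0333) that missed the threshold when any 1 overexpression library, or vector replicate 2 (-0.99), was left out. TM9SF3 fell by 0.62, and CCNJ, ZNF518A and TLL2 did not pass. Of the 6 neighbours of the CD1 row, KIRREL1 and OR10T2 were tested and neither passed; the other 4 were at or near 0.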

How the data were processed

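Gene expression was measured by RNA sequencing of total RNA (TruSeq kit, per the labels) in 6 libraries. The deposited table holds expected counts (estimated per gene, in whole numbers) for 59248 symbols; the submitters' processing notes name fastp 0.23.2, STAR 2.7.10a, StringTie and DESeq2 with build hg38, and the annotation and strand setting are not given in the sources used here. In all libraries more genes had the value 4 than 3, so 1 unit need not be 1 read, and no counting interval is given. The within-library ratios and the extra genes of vector replicate 2 were chosen after the values were seen. Columns were matched to samples by title. edgeR 4.0.16 (R 4.3.3) was used with its default filter, TMM factors and the quasi-likelihood F test on group, with Benjamini-Hochberg adjustment over all 21055 genes tested. SE and 95% intervals come from the same F statistic. The code was tested on simulated counts. Alternatives used DESeq2 1.42.0, limma-voom (limma 3.58.1), other scaling and filters, values divided by 4, a replicate block and each library left out. Ratios were compared by exact permutation tests. Positions, exons and transcripts came from GENCODE 29 and promoter windows from RefSeq GRCh38.p14; 7 of the 8 symbols matched a window, CD1B being the other. Transcripts were aligned with Biopython 1.88 and figures drawn with matplotlib 3.10.9. The 8 genes and the lists were chosen with earlier results of these data known. Named are all 8, and per list up to 3 risen and 3 fallen genes of smallest adjusted p; others are marked where they stand. Some of the genes so chosen are left out of the text.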

Additional observations from a re-analysis of the deposited data

How the results depend on the processing

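Without vector replicate 2 the number of the 8 genes called was 6, against 3 with all libraries. Leaving out other libraries gave 2 to 4, so the range over left-out libraries was 2 to 6. The share of all genes called moved too. It was 46.1% with all libraries, 49.5% without vector replicate 2 and 35.6% to 39.1% without any other library. In the fit without vector replicate 2, CD1B, CD1D, CD1E and KIT changed sign. Over left-out libraries their log2 fold changes ran from -0.273 to 0.0787 (CD1B), -0.113 to 0.0211 (CD1D), -0.225 to 0.282 (CD1E) and -0.861 to 0.154 (KIT). RAG2 and CD1C kept direction and call in each of the 14 alternatives, DNTT kept its direction and lost its call without any 1 overexpression library, and CD1A was called by DESeq2, with the replicate block and without vector replicate 2. Of 112 values of the 8 genes under alternatives, 100 kept direction and side of the threshold. Counts over all genes ran from 7916 to 10868 and counts for the 4 gene lists stayed within 1.5 times of the values given. Whether the replicate numbers pair the libraries is not known. Deviations of same-numbered libraries correlated at 0.00828, -0.00381 and 0.0235 for replicates 1, 2 and 3. The value for replicate 3 was the highest of all pairs, but not every library correlated best with its own number. Values so near 0 cannot decide whether same-numbered libraries shared a culture. With the replicate block 8690 genes were called in place of 9705, and the change of CD1A was 0.43 (edgeR adjusted p = 0.0368). The cause of these shifts was not tested. Upper-quartile scaling moved the median over all genes to 0.0646 and changed no direction of the 8 genes.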

Other observations

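Vector replicate 2 also differed from the other vector libraries in some further genes, picked for large deviations after their values were seen. PTCRA, the pre-T-cell receptor alpha chain gene, was 4.85-fold higher in it than in the mean of vector replicates 1 and 3, CD4 3.03-fold, and the growth factor receptor gene KIT 2.96-fold. The Notch receptor gene NOTCH1, its target DTX1 and TCF7, a transcription factor gene of T-cell progenitors, were 1.68-fold, 1.68-fold and 1.61-fold higher. CD44 was at 0.0988 of the level of the other vector libraries, and ID1 at 0.573. The CD44 level was low, at 1.83, 0.149 and 1.33 CPM in vector replicates 1, 2 and 3. Other genes of early T-lineage cells lay nearer to the other vector libraries, with CD7 at 1.21-fold, GATA3 at 0.911, CD34 at 0.899, CD2 at 0.888 and BCL11B at 0.882 of their level. CD3E was at 1.05-fold and PDCD1 at 0.958 of it. PTCRA was not called between overexpression and vector with all libraries (log2 fold change -1.40, edgeR adjusted p = 0.0901; DESeq2 adjusted p = 0.0195). Its change was -0.21 without vector replicate 2 (edgeR adjusted p = 0.478) and -1.78 without vector replicate 1, where it was called (0.0341). NOTCH1 rose in overexpression by 0.69 on the log2 scale (edgeR adjusted p = 0.016), or by 0.98 without vector replicate 2. The NOTCH1 call was lost in 3 fits, those leaving out overexpression replicate 1 (edgeR adjusted p = 0.0523), overexpression replicate 3 (0.0613) and vector replicate 1 (0.0586). DTX1 fell by 1.13, or by 0.85 without vector replicate 2.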
